A study of Mus musculus with 6 samples.

Results

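The lower part of glycolysis runs from aldolase to pyruvate kinase, and 9 of its genes were chosen by name: Aldoa, Aldoc, Tpi1, Gapdh, Pgk1, Pgam1, Eno1, Eno2 and Pkm. All 9 were among the 17068 genes of the count table, under 10 gene identifiers, because a second identifier also carries the symbol Aldoa. The counts come from bulk RNA-Seq of lateral cortex from 6 female mouse embryos on a c57/bl6 background at embryonic day 12.5. Controls 1, 2 and 4 were Cre negative and Foxp1 fl/+, control 3 was Cre negative and Foxp1 fl/fl, and both Foxp1cKO embryos were Foxp1 fl/fl;Emx1Cre. All 6 therefore carried a floxed Foxp1 allele. Emx1Cre recombines in the progenitors of the dorsal telencephalon and their progeny, so blood and vessel cells in the dissected tissue should keep Foxp1.

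Glycolysis turns glucose into pyruvate in the cytosol. Its upper steps spend ATP to make fructose bisphosphate, and aldolase splits that sugar into triose phosphates. The enzymes that follow oxidize the triose phosphates, return ATP and NADH, and end at pyruvate. Several steps have paralogous genes. Aldoa and Eno1 are the broadly used forms, whereas Aldoc and Eno2 are known from the nervous system, Aldoc above all in astrocytes and some Purkinje cells and Eno2 in neurons. Many glycolytic genes are known targets of hypoxia-inducible factor (HIF), which binds DNA at a short core that reads ACGTG or GCGTG.

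The promoters of both paralog pairs and of Pgk1, the member whose profile was nearest to the members' median, are shown because the results turn on these genes. Each line gives the 250 bases before an annotated start in RefSeq (GRCm38.p6), 5′ to 3′ on the gene's strand, with core matches on either strand in capitals. Where a gene had several starts, the window with the most matches was taken, and of equal windows the most upstream. Aldoa lies at chr7:126799255-126799504 (minus strand), Aldoc at chr11:78322823-78323072 (plus), Eno1 at chr4:150236458-150236707 (plus), Eno2 at chr6:124769674-124769923 (minus) and Pgk1 at chrX:106186850-106187099 (plus).
Aldoa: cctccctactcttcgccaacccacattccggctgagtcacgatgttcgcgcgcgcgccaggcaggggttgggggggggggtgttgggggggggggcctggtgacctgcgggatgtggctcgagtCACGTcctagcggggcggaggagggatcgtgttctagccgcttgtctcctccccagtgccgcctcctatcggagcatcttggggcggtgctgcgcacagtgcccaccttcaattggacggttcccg
Aldoc: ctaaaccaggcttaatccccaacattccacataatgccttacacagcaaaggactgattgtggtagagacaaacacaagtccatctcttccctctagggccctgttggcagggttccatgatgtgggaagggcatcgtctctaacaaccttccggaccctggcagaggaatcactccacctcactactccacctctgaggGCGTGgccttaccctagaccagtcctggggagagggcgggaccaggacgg
Eno1: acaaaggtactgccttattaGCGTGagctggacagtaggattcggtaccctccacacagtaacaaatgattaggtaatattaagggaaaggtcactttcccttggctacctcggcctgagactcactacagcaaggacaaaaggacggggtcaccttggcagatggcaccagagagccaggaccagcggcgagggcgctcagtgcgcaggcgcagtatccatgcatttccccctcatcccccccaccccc
Eno2: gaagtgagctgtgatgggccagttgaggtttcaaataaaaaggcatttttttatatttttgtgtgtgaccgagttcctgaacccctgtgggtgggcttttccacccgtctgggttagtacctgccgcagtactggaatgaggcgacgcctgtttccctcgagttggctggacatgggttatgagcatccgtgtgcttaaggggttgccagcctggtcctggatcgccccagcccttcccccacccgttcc
Pgk1: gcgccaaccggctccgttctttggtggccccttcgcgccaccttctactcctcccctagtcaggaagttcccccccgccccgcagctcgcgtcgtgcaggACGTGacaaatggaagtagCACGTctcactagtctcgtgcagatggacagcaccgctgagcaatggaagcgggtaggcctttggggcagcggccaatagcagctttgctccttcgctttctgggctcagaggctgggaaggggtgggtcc

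The core was searched in windows that also held the 50 bases after the start. Aldoa had 1 ACGTG match on the opposite strand, beginning at position -126 from the start, and Pgk1 had 2, at -150 and -131. In Aldoc, GCGTG lay at -50 and 11 and ACGTG at 27, so 2 of its 3 matches fall after the start and are not in the printed stretch. Eno1 had GCGTG at -230 and 9. These positions are for the windows shown. From other annotated starts, Eno1 had GCGTG at -86 and -62 or at -113 and -89, and Aldoc had it at -39. Eno2 and Tpi1 had no match in these letters. Over the 15 windows of the 9 members, 11 held either spelling and 7 held ACGTG. Some windows of Aldoa and of Eno1 overlap and hold the same site. Counted by gene, 6 of the 9 members had ACGTG, 4 had GCGTG and 2 had neither. Of all 32851 windows in the table, 43.8% held either spelling, 19.6% ACGTG and 32.4% GCGTG.

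RNA of the lower glycolysis genes was more abundant in the libraries labelled Foxp1cKO for 8 of the 9 members. Aldoa rose 3.01-fold and was the only member past the threshold of edgeR's quasi-likelihood test (adjusted p under 0.05 over all genes). Tpi1, Eno1 and Pgk1 had fold changes of 2.31, 2.31 and 2.23, Pgam1 of 1.76, and the abundant Pkm and Gapdh of 1.45 and 1.39. Aldoc had a log2 fold change of -0.19 and Eno2 of 0.68, and for both the groups overlapped. By the same rule 26 of 17068 genes (0.152%) were higher. At an unadjusted p under 0.05, 8 of the 9 members were higher, against 6.53% of all genes. DESeq2's Wald test called 5 members higher (Aldoa, Tpi1, Pgk1, Pgam1 and Eno1), against 1.82% of all genes. Without control 4, edgeR called 4 members higher (Aldoa, Tpi1, Pgk1 and Eno1), and without control 1, control 2 or either library labelled Foxp1cKO it called 0. Over all genes the same fits called 83 genes higher without control 4, and 6, 2, 9 and 2 without control 1, control 2 and libraries 1 and 2 labelled Foxp1cKO. In 7 members both libraries labelled Foxp1cKO were above all 4 controls, against 11.5% of all genes. The median log2 fold change was 0.81 over the members and 0.00 over all genes (-0.004446). edgeR called 0 members and 0.0% of all genes lower, while 1109 genes were lower at an unadjusted p under 0.05 and DESeq2 called 197 lower, none of them a member.

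**Figure D1:**
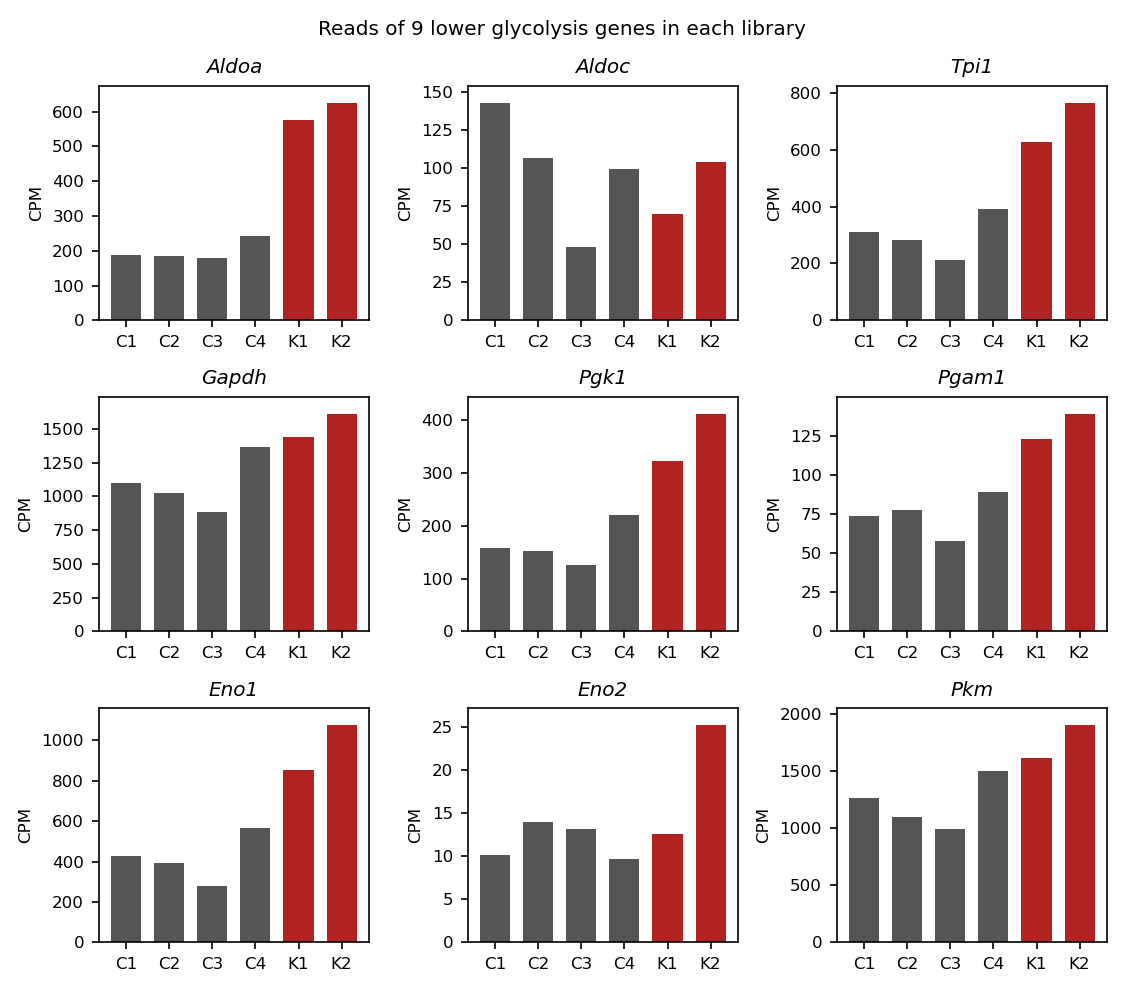
CPM of each member (its count scaled to a common library size, with TMM factors) in each library, with its own axis from 0. Grey bars C1 to C4 are the controls and red bars K1 and K2 the libraries labelled Foxp1cKO; the red bars stand above every grey bar except for Aldoc and Eno2.

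Some facts of the libraries touch these values. Foxp1, the targeted gene, had 59.7, 60.8, 71.2 and 79.1 CPM in controls 1 to 4 and 83.2 and 76.8 CPM in the libraries labelled Foxp1cKO (log2 fold change 0.24 ± 0.13 SE, edgeR adjusted p = 0.468). A count over the whole gene cannot show the loss of single exons, so it does not check the labels, which are used here as given. Totals were 50076008 to 78346979 counts. Markers of cortical radial glia (7 of 8 in the table), intermediate progenitors (4) and neurons (7 of 8) were present in every library, and their summed levels overlapped between groups, at 2015 to 2555 against 2214 to 2308 CPM, 622.5 to 841.7 against 588 to 675 CPM, and 2725 to 4918 against 3611 to 3677 CPM. The 6 red cell markers summed to 1286, 983, 1020 and 2809 CPM in controls 1 to 4 and to 2980 and 3302 CPM in the libraries labelled Foxp1cKO. Most of each sum was Hbb-y, with 935, 754, 774 and 2340 CPM in controls 1 to 4 and 2454 and 2739 CPM in the libraries labelled Foxp1cKO. Over the 6 the log2 fold changes ran from -0.17 to 1.11, with 5 higher and 1 lower. The lower one, Hbb-bs, was highest in control 1 (109.2 CPM). The 4 pericyte markers summed to 52.6 to 66.8 against 85.7 to 88.2 CPM. The 6 endothelial markers summed to 120.1 to 186.3 against 178.4 to 218.1 CPM, and the groups overlapped. Their log2 fold changes ran from -0.35 to 1.64 with a median of 0.09, with 4 higher and 2 lower. Only Flt1 among them passed edgeR's threshold, with a mean of 15.9 CPM in controls and 49.4 CPM in the libraries labelled Foxp1cKO. Microglia markers summed to 18.7 to 28.4 against 27.8 to 28.1 CPM, mesenchyme markers to 40.3 to 268 against 59.4 to 149 CPM, and markers of the ventral telencephalon to 168 to 614 against 283 to 400.2 CPM. No marker was at 0 in any library. In bulk tissue more cells of a type and more RNA per cell cannot be told apart. Replicates are single embryos, so p-values set the group difference against variation between these 6 samples. Only 2 of them are labelled Foxp1cKO, and litter, which is not in the labels, could not be separated from that variation.

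Aldolase cuts fructose bisphosphate into the triose phosphates that the later enzymes use. Aldoa (ENSMUSG00000030695.16, chr7:126795234-126800751 in GENCODE M21, minus strand) had 188.3, 185.5, 179.7 and 242.1 CPM in controls 1 to 4 and 575.5 and 623.5 CPM in the libraries labelled Foxp1cKO. Controls 1 to 3 were close together, control 4 was above them, and both libraries labelled Foxp1cKO were far above control 4. The log2 fold change was 1.59 ± 0.13 (SE; 95% interval 1.29 to 1.90; edgeR adjusted p = 0.0104), which ranked 101 of 17068 from the highest. DESeq2 gave an adjusted p of 2e-23 and limma on the deposited log2-scale values 0.00933. The call did not hold when control 1, control 2 or either library labelled Foxp1cKO was left out (adjusted p 0.0672, 0.0763, 0.0692 and 0.131), while the fold change stayed between 1.52 and 1.70 on the log2 scale. The second identifier with the symbol Aldoa (ENSMUSG00000114515.2, chr7:126800790-126809108) lies just upstream and had only 3.90 to 5.88 CPM in controls and 5.33 and 5.80 CPM in the libraries labelled Foxp1cKO. Its log2 fold change was 0.18 (adjusted p = 0.736), and summing both identifiers gave 1.58 for Aldoa.

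Aldoc (chr11:78322968-78327781), the paralog of brain, had 142.4, 106.4, 48.4 and 99.2 CPM in controls 1 to 4 and 69.7 and 104.2 CPM in the libraries labelled Foxp1cKO. Both of the latter lay inside the control range, which spanned 2.94-fold and was the widest of the members. The log2 fold change of -0.19 ± 0.39 had an interval of -1.10 to 0.72 (adjusted p = 0.87), which holds decreases and increases larger than the fold change of Gapdh. Against single controls the mean of the libraries labelled Foxp1cKO differed by -0.74 (control 1), -0.32 (control 2), 0.82 (control 3) and -0.22 (control 4) on the log2 scale, so its direction depended on the control.

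The difference between the paralogs was itself compared, since library size cancels in it and gene length is a constant that cancels when libraries are compared. Aldoa minus Aldoc, on the log2 CPM scale, was 0.40, 0.80, 1.89 and 1.29 in controls 1 to 4 and 3.04 and 2.58 in the libraries labelled Foxp1cKO. All controls were below both of the latter, and the means of 1.10 ± 0.64 (SD, n = 4) and 2.81 ± 0.33 (SD, n = 2) differed by 1.72, a 3.29-fold shift of the ratio. The exact permutation test over libraries gave a two-sided p of 0.133, the smallest that 4 against 2 allows. Scaled by length, Aldoc made up 40.3, 33.8, 19.4 and 26.8% of aldolase reads in controls 1 to 4 and 9.76 and 13.0% in the libraries labelled Foxp1cKO. That share was below every control in both (difference of means -18.7 percentage points, exact permutation p = 0.133). Summed over both paralogs, aldolase had 331, 292, 228 and 341 CPM in the controls and 645 and 728 CPM in the libraries labelled Foxp1cKO, a 2.33-fold difference with the same p of 0.133 in the exact permutation test.

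**Figure D2:**
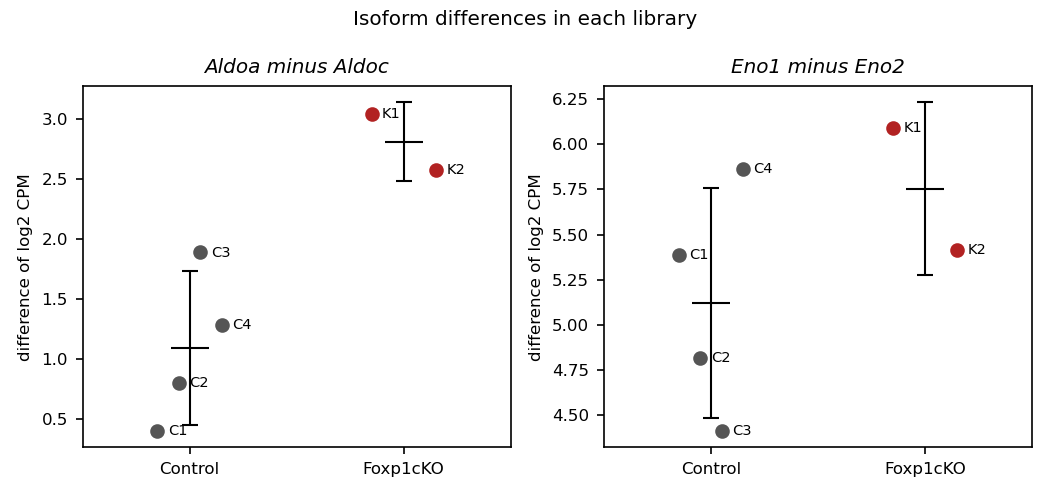
Log2 CPM of Aldoa minus Aldoc (left) and of Eno1 minus Eno2 (right) in each library; grey points are controls C1 to C4, red points the libraries labelled Foxp1cKO K1 and K2, and the bars are the group mean ± SD. The groups are apart on the left (0.40 to 1.89 against 2.58 and 3.04) and overlap on the right.

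Triose phosphate isomerase and the next 3 enzymes were each represented by 1 member. Tpi1 (chr6:124810586-124814296), which interconverts the triose phosphates, had 312, 283, 212 and 392 CPM in controls 1 to 4 and 625 and 762 CPM in the libraries labelled Foxp1cKO. Both were above every control, with a log2 fold change of 1.21 ± 0.22 (interval 0.70 to 1.72). The adjusted p was 0.178 by edgeR, 4.12e-05 by DESeq2 and 0.0444 by edgeR without control 4.

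Gapdh (chr6:125161715-125166467) oxidizes glyceraldehyde phosphate and makes NADH, and it is often used as a reference gene. It had 1097, 1024, 882 and 1364 CPM in controls 1 to 4 and 1437 and 1607 CPM in the libraries labelled Foxp1cKO. Library 1 of the latter exceeded control 4 by little, and the groups did not overlap. The log2 fold change of 0.48 ± 0.17 (interval 0.09 to 0.87) had an adjusted p of 0.323 by edgeR and 0.117 by DESeq2. Against control 4 alone it was 0.16.

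Pgk1 (chrX:106187100-106203699) encodes phosphoglycerate kinase, the first enzyme of the pathway to return ATP. Its level was 157.5, 153.0, 125.7 and 221.2 CPM in controls 1 to 4 and 322 and 412 CPM in the libraries labelled Foxp1cKO. Control 4 was the highest control and stayed below both. On the log2 scale the fold change was 1.16 ± 0.21 (interval 0.66 to 1.66), with an adjusted p of 0.182 by edgeR, 8.33e-05 by DESeq2 and 0.0257 by edgeR without control 4.

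Pgam1 (chr19:41911923-41918660), the mutase that moves the phosphate within phosphoglycerate, had 73.6, 77.4, 57.8 and 88.9 CPM in controls 1 to 4 and 122.8 and 138.8 CPM in the libraries labelled Foxp1cKO. The groups were apart, at 74.4 ± 12.8 (SD, n = 4) against 130.8 ± 11.3 (SD, n = 2) CPM. This gave a log2 fold change of 0.81 ± 0.16 (interval 0.44 to 1.19; adjusted p = 0.206 by edgeR and 0.000816 by DESeq2).

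Enolase makes phosphoenolpyruvate, and its paralogs differed widely in level. Eno1 (chr4:150236721-150248879) had 426, 395, 279 and 567 CPM in controls 1 to 4 and 854 and 1073 CPM in the libraries labelled Foxp1cKO. All controls were below both, and the log2 fold change was 1.21 ± 0.25 (interval 0.63 to 1.79), with an adjusted p of 0.225 by edgeR, 0.000403 by DESeq2 and 0.049 by edgeR without control 4. Eno2 (chr6:124760053-124769673) had 10.1, 14.0, 13.1 and 9.70 CPM in controls 1 to 4 and 12.5 and 25.1 CPM in the libraries labelled Foxp1cKO. Library 1 of the latter lay within the controls and library 2 well above them. The log2 fold change of 0.68 ± 0.28 (interval 0.01 to 1.36; adjusted p = 0.377) was 0.07 without library 2 and 1.10 without library 1, so 1 library decided its size.

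Eno1 minus Eno2 was 5.39, 4.82, 4.41 and 5.86 in controls 1 to 4 and 6.09 and 5.41 in the libraries labelled Foxp1cKO on the log2 CPM scale. The groups overlapped, and the difference of means of 0.63 had an exact permutation p of 0.267. It was 0.40 without control 3, and 0.29 without library 1 and 0.97 without library 2 of those labelled Foxp1cKO. Eno2 made up only 1.92 to 5.08% of enolase reads per length in the controls and 1.65 and 2.61% in the libraries labelled Foxp1cKO (exact permutation p = 0.267). Enolase summed over both paralogs followed Eno1, with 436, 409, 292.5 and 576.5 CPM in controls and 867 and 1098 CPM in the libraries labelled Foxp1cKO, a 2.34-fold difference (exact permutation p = 0.133).

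Pkm (chr9:59656368-59679375) encodes the pyruvate kinase of most tissues, which makes pyruvate and ATP and occurs as splice forms that a count over the gene cannot separate. Its level was 1261, 1098, 988 and 1502 CPM in controls 1 to 4 and 1611 and 1897 CPM in the libraries labelled Foxp1cKO. Both were above control 4, the highest control. Its log2 fold change was 0.53 ± 0.17 (interval 0.13 to 0.94; adjusted p = 0.297 by edgeR and 0.0776 by DESeq2).

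Within each library, Aldoa was set against the other members. Relative to Gapdh and Pkm it was higher in both libraries labelled Foxp1cKO than in any control, with mean differences of 1.11 and 1.06 on the log2 scale, and likewise relative to Pgam1 (0.77) and Pgk1 (0.42). Each of these had an exact permutation p of 0.133, the smallest the design allows. Relative to Tpi1, Eno1 and Eno2 the groups overlapped (differences of 0.36, 0.36 and 0.99, exact permutation p = 0.267). A ratio between genes shows unequal change and not that either gene stayed the same.

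**Figure D3:**
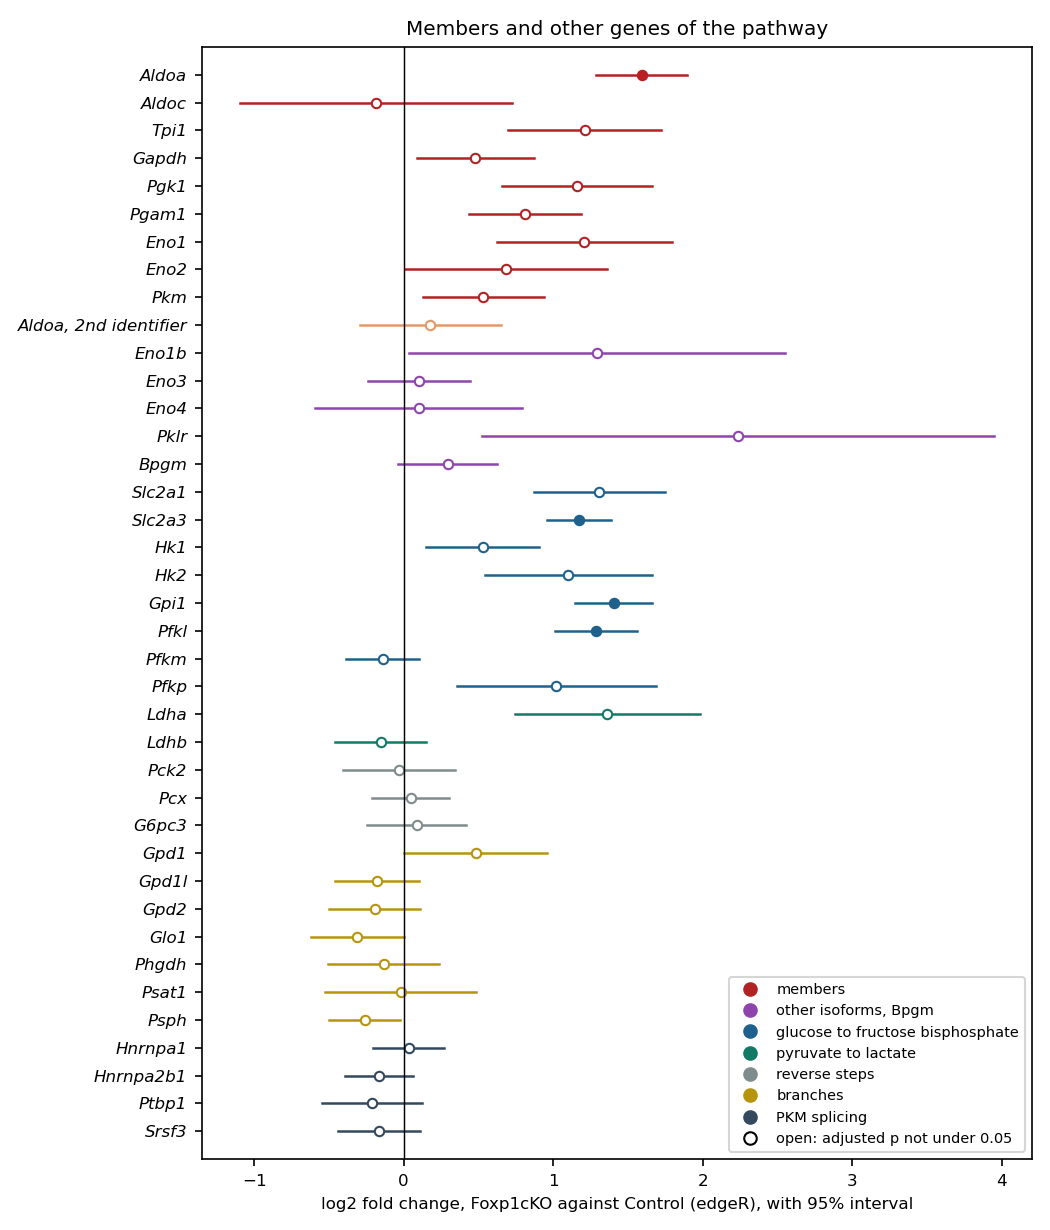
Log2 fold change of each gene (libraries labelled Foxp1cKO against controls) with its 95% interval from edgeR, coloured by list; filled points passed an adjusted p of 0.05 and open points did not. Aldoa is the one filled member at 1.59, Aldoc the one member left of 0, and Gpi1, Pfkl and Slc2a3 are the filled genes of the upper pathway.

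The members also varied together among the controls. Control 4 was the highest control for 7 of the 9 members and control 3, the Foxp1 fl/fl control, the lowest for 8. The same counts were not made over all genes. Over the whole table controls 3 and 4 differed most among control pairs, with a chi-square per gene of 193 against 25.9 to 89.8. Many other genes may thus have the same extreme controls. The members took 0.369, 0.328, 0.276 and 0.451% of all counts in controls 1 to 4 and 0.566 and 0.671% in the libraries labelled Foxp1cKO. All 9 were higher in library 2 than in library 1 of the latter. The summed red cell markers, most of whose reads were Hbb-y, were also highest in control 4 among the controls. They were 1.03 above the control mean there on the log2 scale, near the 1.11 and 1.26 of the libraries labelled Foxp1cKO. Control 4 was also the lowest library in neuron markers, at -0.51, and radial glia markers had the same extreme controls as most members, with control 4 highest (0.13) and control 3 lowest (-0.21). Control 3 further stood apart in markers of the ventral telencephalon (1.18; 614 CPM against 168 to 259 CPM in the other controls) and of meninges and mesenchyme (-1.40). The part of any of these marker lists, or of the genotype of control 3, in the members' values was not tested. Aldoa itself was 0.29 above the control mean in control 4 and 1.54 and 1.66 above it in the libraries labelled Foxp1cKO.

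**Figure D4:**
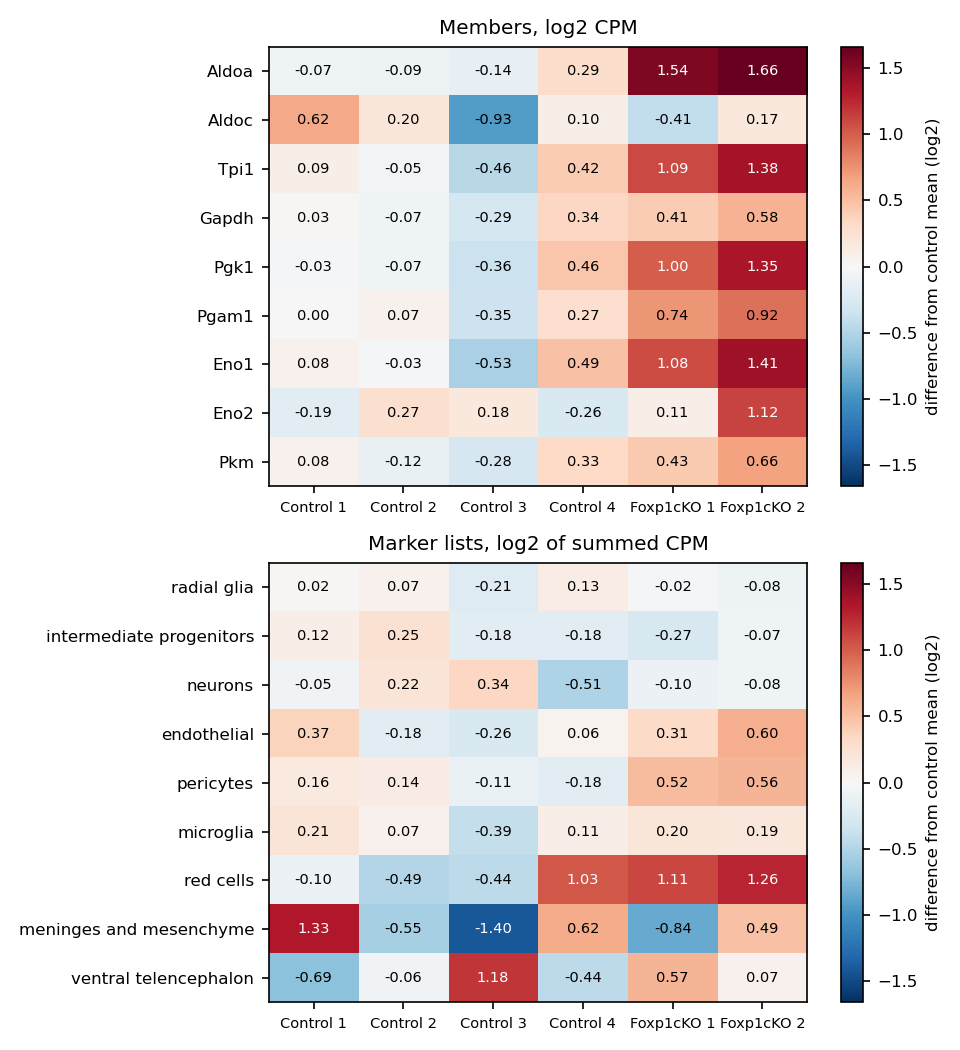
Difference of each library from the control mean, on the log2 scale, for each member (upper panel, log2 CPM) and each marker list (lower panel, log2 of the summed CPM); red is higher and blue lower, with the values printed. Most members are highest in the libraries labelled Foxp1cKO and in control 4 among controls, as are the summed red cell markers, while Aldoc and Eno2 have other patterns.

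Levels of different genes were compared only per length, as TPM, which here is the count over the length of the union of a gene's exons, scaled to the same total in every library. In controls the medians ran from Gapdh at 1097 TPM and Pkm at 1009 TPM through Tpi1 (462 TPM), Eno1 (326 TPM), Pgk1 (296 TPM), Aldoa (274.5 TPM), Pgam1 (163 TPM) and Aldoc (133 TPM) to Eno2 at 10.7 TPM. Neighbours with separate control ranges were only Pkm and Tpi1, Aldoa and Pgam1, and Aldoc and Eno2; the other neighbours overlapped. In both libraries labelled Foxp1cKO Aldoa, at a mean of 895 TPM, was above Pgk1, at 710 TPM, the reverse of their order in 3 of 4 controls. With the longest transcript as the length, 6 of the 9 members took another place in the control order: Pkm 1, Gapdh 2, Eno1 3, Tpi1 4, Aldoa 5 and Pgk1 6. The lowest 3 places were the same. By that length Aldoa was above Pgk1 in controls (medians of 383 and 270 TPM). It was also above Pgk1 in the libraries labelled Foxp1cKO (means of 1250 and 648 TPM). The reversal of Aldoa and Pgk1 thus depended on the length used.

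How cleanly reads can be assigned differed between members. Of the distinct stretches of 100 bases in the annotated transcripts, none was shared with a gene outside the members for Aldoa, Aldoc and Eno2. For Tpi1 the share was 0.422%. Stretches shared between members, such as paralogs, or between the 2 Aldoa identifiers were not searched. The share was 12.3% for Pkm, 20.4% for Eno1, 20.9% for Gapdh, 33.9% for Pgam1 and 51.7% for Pgk1, and the other genes numbered 3, 4, 86, 2 and 3 in that order. These are shares of annotated sequence, in stretches shorter than the authors' paired reads. How many reads of those 5 genes are ambiguous was not measured. Exons of Aldoa, Tpi1 and Gapdh overlapped Fam57b, Spsb2 and Iffo1 on the opposite strand by 25, 34 and 68 bases. The kit keeps strand, but the strand setting of the counting is not given in the sources used here.

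Other isoforms and related enzymes with values were Eno1b, Eno3, Eno4, Pklr and Bpgm, and of these 5 none passed edgeR's threshold or DESeq2's, which gave Pklr and Eno1b no adjusted p. The edgeR p-values of 2 of the 5, Pklr and Eno1b, were under 0.05 before adjustment. Pklr, the pyruvate kinase of liver and red cells, had 0.0969, 0.0966, 0.0412 and 0.406 CPM in controls 1 to 4 and 0.616 and 0.936 CPM in the libraries labelled Foxp1cKO (log2 fold change 2.24 ± 0.73, adjusted p = 0.302). Control 3 held only 3 counts. The level was highest in the libraries where the summed red cell markers were highest, and the part of red cells in its level was not tested. Bpgm, which makes the bisphosphoglycerate that lowers the oxygen affinity of haemoglobin, had 52.1 to 71.8 against 67.9 and 80.8 CPM (log2 fold change 0.29, adjusted p = 0.423). Eno3, the muscle enolase, had 7.18 to 8.66 against 8.07 and 9.20 CPM (log2 fold change 0.10, adjusted p = 0.801).

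Among 28 other genes of the pathway, 24 were in the table. edgeR called 3 higher and 0 lower, against 0.152% of all genes higher. DESeq2 called 7 higher and 0 lower, against 1.82% of all genes higher. The 3 called by edgeR act before aldolase. Gpi1, which turns glucose phosphate into fructose phosphate, had 221 to 291 against 702 and 667 CPM and a log2 fold change of 1.41 ± 0.11 (adjusted p = 0.00963). Pfkl, a phosphofructokinase whose product is the substrate of aldolase, had 106.3 to 142.7 against 285.5 and 310.2 CPM (1.29 ± 0.12, adjusted p = 0.0162). Slc2a3, a glucose transporter, had 18.1 to 21.3 against 45.4 and 45.6 CPM (1.17 ± 0.09, adjusted p = 0.00963). In this list of 8 measured genes 7 had both libraries labelled Foxp1cKO above all controls, against 11.5% of all genes. The median log2 fold change of the list was 1.14, and only Pfkm was lower (-0.14, edgeR adjusted p = 0.588). The calls of Gpi1, Pfkl and Slc2a3 were lost in the same 4 leave-one-out fits as that of Aldoa.

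After pyruvate, lactate dehydrogenase also has paralogs. Ldha, the form that favours lactate, had 408, 345, 253 and 541.5 CPM in controls 1 to 4 and 917 and 1072 CPM in the libraries labelled Foxp1cKO. These were above all controls (log2 fold change 1.36 ± 0.26; adjusted p = 0.196 by edgeR and 9.29e-05 by DESeq2). Ldhb overlapped between groups, at 176 to 209 against 146 and 192 CPM (log2 fold change -0.15, adjusted p = 0.635).

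Genes that lead out of the lower pathway had log2 fold changes from -0.31 to 0.48. None of the 7 genes at the triose phosphate and phosphoglycerate branches passed either test, and their median log2 fold change was -0.18. Gpd1, which makes glycerol phosphate, had 2.07 to 2.64 against 3.80 and 2.97 CPM (0.48, adjusted p = 0.382), and its relatives Gpd1l and Gpd2 had -0.18 and -0.19. Phgdh and Psat1, the first enzymes of serine synthesis, had -0.13 and -0.02. Psph, the last of them, was below every control in both libraries labelled Foxp1cKO (-0.26, edgeR adjusted p = 0.351), as were 2235 of all 17068 genes. Gpd1 was above every control in both of those libraries, as were 11.5% of all genes. Glo1, which clears the methylglyoxal that triose phosphates give off, had the lowest value of the 24 at -0.31 (adjusted p = 0.385). The 3 measured genes of reverse steps, Pck2, Pcx and G6pc3, lay between -0.03 and 0.09. The 4 regulators of Pkm splicing (Hnrnpa1, Hnrnpa2b1, Ptbp1 and Srsf3) lay between -0.21 and 0.03, with none called.

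Genes with the most similar pattern were sought among 10090 with a mean of at least 10 CPM, by the root mean square difference of log2 CPM from the centred profile over the 6 libraries. Nearest to the median profile of the members were Plod2, Bhlhe40, Galk1, Grhpr and Ak4, at 0.0947 to 0.127. Pgk1 (0.105), Pgam1 (0.125), Tpi1 (0.142) and Eno1 (0.155) were about as near, whereas Pkm (0.233), Gapdh (0.255), Aldoa (0.321), Eno2 (0.437) and Aldoc (0.645) were farther. Each member helped to form that median and the other genes did not, so distances of members and other genes are not strictly alike. None of the 5 nearest passed edgeR's threshold (adjusted p 0.235 to 0.287). Nearest to Eno2 were Rgs9, Gng7, Camk2n1, Adcy5 and Syne1 (0.108 to 0.172), each with its highest level in a library labelled Foxp1cKO. Nearest to Aldoc were Nfatc4, Cyp46a1, Col26a1, Col5a2 and Selenop (0.0962 to 0.225). The 6 libraries leave few points to set profiles apart, and these distances are descriptions.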

How the data were processed

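RNA was extracted with a Qiagen miRNeasy kit and libraries were made with a TruSeq Stranded kit, per the labels. Alignment by the authors used STAR and the mm10 genome, and HTSeq 0.9.1 gave the counts per gene, from which low genes had been dropped. These deposited whole counts carry no normalization. The deposited log2-scale values are DESeq2's variance-stabilized counts (version 1.30.1, R 4.0.3). The litter, a term of the authors' model, is not in the labels and was not used.

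Counts of all 17068 genes were tested in R 4.3.3 with edgeR 4.0.16 (quasi-likelihood, TMM, group alone, Benjamini-Hochberg, adjusted p under 0.05). DESeq2 1.42.0, limma 3.58.1 with a trend on the log2-scale values, edgeR's robust fit, DESeq2's size factors, total counts, filterByExpr, each library left out and a replicate block were alternatives. Log2 CPM used a prior count of 2. Paralog differences were tested with two-sided exact permutation over libraries (15 arrangements, smallest p 0.133). GENCODE M21 held 17047 of the identifiers, not 21 others. It is another release than the authors used, on the same assembly, and gave positions and lengths. All 9 members matched RefSeq's promoter table.

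Totals were 61638394, 63181214, 73499617 and 78346979 counts in controls 1 to 4 and 50076008 and 75085520 in the libraries labelled Foxp1cKO. Pairs of libraries within a group differed by a chi-square per gene of 25.9 to 193, so none was a copy of another. Groups came from the labels. Whether replicate numbers pair libraries is not known, and the main test did not use them. The correlations of same-numbered deviations were -0.198 and 0.0157. With only 2 libraries labelled Foxp1cKO, their deviations mirror each other, so these correlations cannot show or exclude pairing.

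Named genes were the members, listed paralogs and pathway genes (those past the threshold, the extremes and those beside the 9 steps), Foxp1, and the 5 genes nearest in profile to the members' median, to Eno2 and to Aldoc. Flt1, Hbb-y and Hbb-bs were named after their values were seen. The members and lists were chosen with earlier results of these data known.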

Additional observations from a re-analysis of the deposited data

Results flagged for a closer look

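Among 46 sets of 4 control values tested for a sample far from the others, 2 passed Dixon's critical value at the 95% level for 4 samples, and chance alone passes about 1 in 20. Aldoa was one: control 4 (242 CPM) stood above the other controls (179.7 to 188.3 CPM), with a gap of 0.842 of the range on the log2 scale. Control 4 also had the highest summed red cell markers of the controls (2809 CPM), and the part of this in the value was not tested. Gpd1l was the other: control 4 (32.5 CPM) stood below the other controls (39.8 to 41.0 CPM), with a gap of 0.871 of the range, beside 32.3 and 35.8 CPM in the libraries labelled Foxp1cKO.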

How the results depend on the processing

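DESeq2 called more genes than edgeR, with 310 higher and 197 lower over all genes, 5 members higher and 7 other pathway genes higher, against 26, 0, 1 and 3. The replicate block, which treats libraries of the same number as pairs, called 0 genes higher, 0 members and 0 other pathway genes, with an adjusted p of 0.0719 for Aldoa at a log2 fold change of 1.68. Whether libraries of the same number share a litter is not in the labels, and the correlations of their deviations cannot settle it. Leaving out 1 library at a time gave 2 to 83 genes higher, 0 to 13 lower, 0 to 4 members higher and 0 to 4 other pathway genes higher, with the most without control 4 in each. A lone library labelled Foxp1cKO was then assumed to vary like the controls. Limma, robust fitting, other size factors, total counts and filterByExpr gave 23 to 27 genes higher and 1 member, Aldoa.

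The log2 fold change of Aldoc reversed to 0.0222 without control 1 and to 0.0723 without Foxp1cKO replicate 1, with an adjusted p of 0.991 in both, and its range with 1 library left out was -0.523 to 0.0723. The other 8 members kept their direction in all 13 alternatives. Over its alternatives the adjusted p of Aldoa ran from 2e-23 to 0.131, of Tpi1 from 4.12e-05 to 0.556, of Pgk1 from 8.33e-05 to 0.556, of Pgam1 from 0.000816 to 0.615 and of Eno1 from 0.000403 to 0.615. The shift of Aldoa minus Aldoc ran from 1.49 to 2.21 and that of Eno1 minus Eno2 from 0.294 to 0.971. No scaling moved the median of all genes by over 0.1 on the log2 scale. The causes of these differences were not tested. With 4 libraries against 2, the exact permutation test used for the paralog differences cannot give a p below 0.133.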
